A study of Mus musculus with 16 samples.

Results

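The genes described here encode cytochrome P450 enzymes and the enzymes that conjugate their products in gonadal white adipose tissue (gWAT) of mice. They were chosen by name from the table of 19373 genes: every gene whose symbol starts with Cyp, Gst (classes alpha, kappa, mu, omega, pi and theta), Mgst or Sult and a number, or with Ugt1 or Ugt2. The rule took 102 genes, of which 56 are Cyp, 18 Gst, 3 Mgst, 9 Sult and 16 Ugt genes. Of these, 58 reached at least 1 FPKM in at least 4 of the 16 mice and were tested, namely 27 Cyp, 15 Gst, 2 Mgst, 6 Sult and 8 Ugt genes. FPKM, the fragments mapped to a gene scaled by transcript length and library size, is the level given for each gene and mouse.

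P450 enzymes are heme proteins of the endoplasmic reticulum and the mitochondrion that add oxygen to drugs, ethanol, fatty acids, sterols and steroid hormones. Those of the endoplasmic reticulum take electrons from P450 oxidoreductase, the product of Por. Glutathione transferases, sulfotransferases and UDP-glucuronosyltransferases then join glutathione, sulfate or glucuronate to reactive or oxidized compounds. The families are best known from liver, while in fat the sulfotransferase SULT1E1 acts on estrogens, CYP2E1 oxidizes ethanol, acetone and fatty acids, and alpha-class glutathione transferases take up aldehydes made when lipids are oxidized.

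The data come from 4 control (Mboat7 flox/flox) mice and 4 Mboat7 ASKO mice fed chow for 20 weeks, and 4 mice of each genotype fed a high-fat diet (HFD) for as long. All mice were male and on the C57Bl6/J background, and 1 RNA library was made from the gWAT of each. Mboat7, a lysophosphatidylinositol acyltransferase, was deleted with a Cre recombinase driven by the adiponectin promoter, so that only adipocytes lose it and the other cells of the tissue keep it, while control mice carry the floxed alleles without the Cre. The age at the start of the diets is not given in the sources used here.

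The levels were read with care where a gene was listed at 0. Ppia, which codes for a peptidylprolyl isomerase that every cell uses, was listed at 0 in 9 of 16 mice, and Pgk1, a glycolysis gene, at 0 in 11 of 16. An exact 0 can therefore be a failed estimate. The text gives no fold that draws on a group at 0, apart from fitted values marked as such in the closing section. The figure of diet effects plots the fitted value of every tested member. Of the 102 members, 12 were above 0 in all 16 mice, and 46 of the 58 tested members were listed at 0 in at least 1 mouse. The targeted gene, Mboat7, had 2.42, 4.33, 0.902 and 4.99 FPKM in control mice on chow and 0, 1.39, 0 and 2.89 in Mboat7 ASKO mice on chow. On HFD it had 0, 0, 2.15 and 1.61 FPKM in control mice and 1.14, 0, 2.6 and 0 in Mboat7 ASKO mice. The genotypes overlapped on either diet, so the Mboat7 values do not check the genotype labels, and Tsen34, on the opposite strand, has exons in the same place. The study reports less MBOAT7 protein in gWAT of Mboat7 ASKO mice on chow. It also reports less of the enzyme's main phosphatidylinositol product in gWAT on both diets.

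The tissue label was checked against markers of adipocytes, and all 8 were above 0 in every mouse. The 8 adipocyte markers summed to 9436, 15347, 13120 and 9979 FPKM in control mice on chow and 8092, 12286, 24254 and 10619 in Mboat7 ASKO mice on chow. They summed to 10669, 6380.1, 8490.4 and 4617 FPKM in control mice on HFD and 7211, 7064, 6493 and 6395 in Mboat7 ASKO mice on HFD, with Fabp4, a fatty acid binding protein gene, the most abundant in the list. The sums were lower on HFD in most mice, with overlap between the diets. Of 8 markers of epididymal epithelium, the tissue next to gonadal fat, Adam7 alone is in the table, at 0.736 FPKM in 1 mouse (control HFD 3) and at 0 in the others.

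Some libraries stood apart in RNA typical of liver. The 7 hepatocyte markers, led by Alb, which codes for albumin, summed to 108, 286, 362 and 45.5 FPKM in control mice on chow and 555, 22.4, 132 and 21.3 in Mboat7 ASKO mice on chow. They summed to 23.1, 397, 25.7 and 254 FPKM in control mice on HFD and 42.3, 609.7, 8.9 and 63.8 in Mboat7 ASKO mice on HFD. Each group thus held mice with high and mice with low sums. All 7 markers were above 0 in the mice with the highest sums, ASKO HFD 1 and ASKO chow 0, and 2 were above 0 in the lowest, ASKO HFD 2, where Alb was listed at 0.

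The members that are best known from liver followed the same mice. The 23 members named Cyp2a, Cyp2c, Cyp3a, Sult2 or Ugt2, a grouping made after the values were seen, summed to 17.4, 45.3, 38.8 and 1.26 FPKM in control mice on chow and 104, 5.77, 20.9 and 3.23 in Mboat7 ASKO mice on chow. They summed to 5.33, 35.5, 0 and 24 FPKM in control mice on HFD and 4.89, 46.4, 1.74 and 1.32 in Mboat7 ASKO mice on HFD. The 6 mice with the highest sums of these members were the 6 with the highest hepatocyte marker sums, and in ASKO HFD 1, the mouse with the highest marker sum, 13 of the 23 were above 0. Cyp2e1, which is also abundant in liver, did not follow these mice in every case on chow. It stood at 665 FPKM in ASKO chow 1, where Alb was at 5.15, and at 697 FPKM in ASKO chow 0, where Alb was at 217. Its highest chow value, 1178 FPKM, was in control chow 1, where Alb was at 86.7. The lowest, 455 FPKM, was in control chow 2, where Alb was at 146. On HFD, its highest value, 106 FPKM, was in ASKO HFD 1, where Alb was also highest, and among control mice its 2 higher values, 47.7 and 46.4 FPKM, were in the 2 mice with the most Alb. The called members were therefore also fitted in the 10 mice with under 80 FPKM of Alb (2 control and 3 Mboat7 ASKO mice on each diet) and with the mean log2 level of the hepatocyte markers as a covariate, both chosen after seeing the data. Without the high-Alb mice, 5 of the 7 members called on the average diet effect stayed called (Mgst1 and Sult1a1 were lost), and 1 of 5 in control mice (Cyp2e1). With the covariate, 7 of 7 and 4 of 5 (without Sult1e1) did. For Gsta4 and Gstm4, which stayed called without the high-Alb mice, the control HFD mice kept there were listed at 0. How liver-type RNA came into these libraries was not tested.

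**Figure D1:**
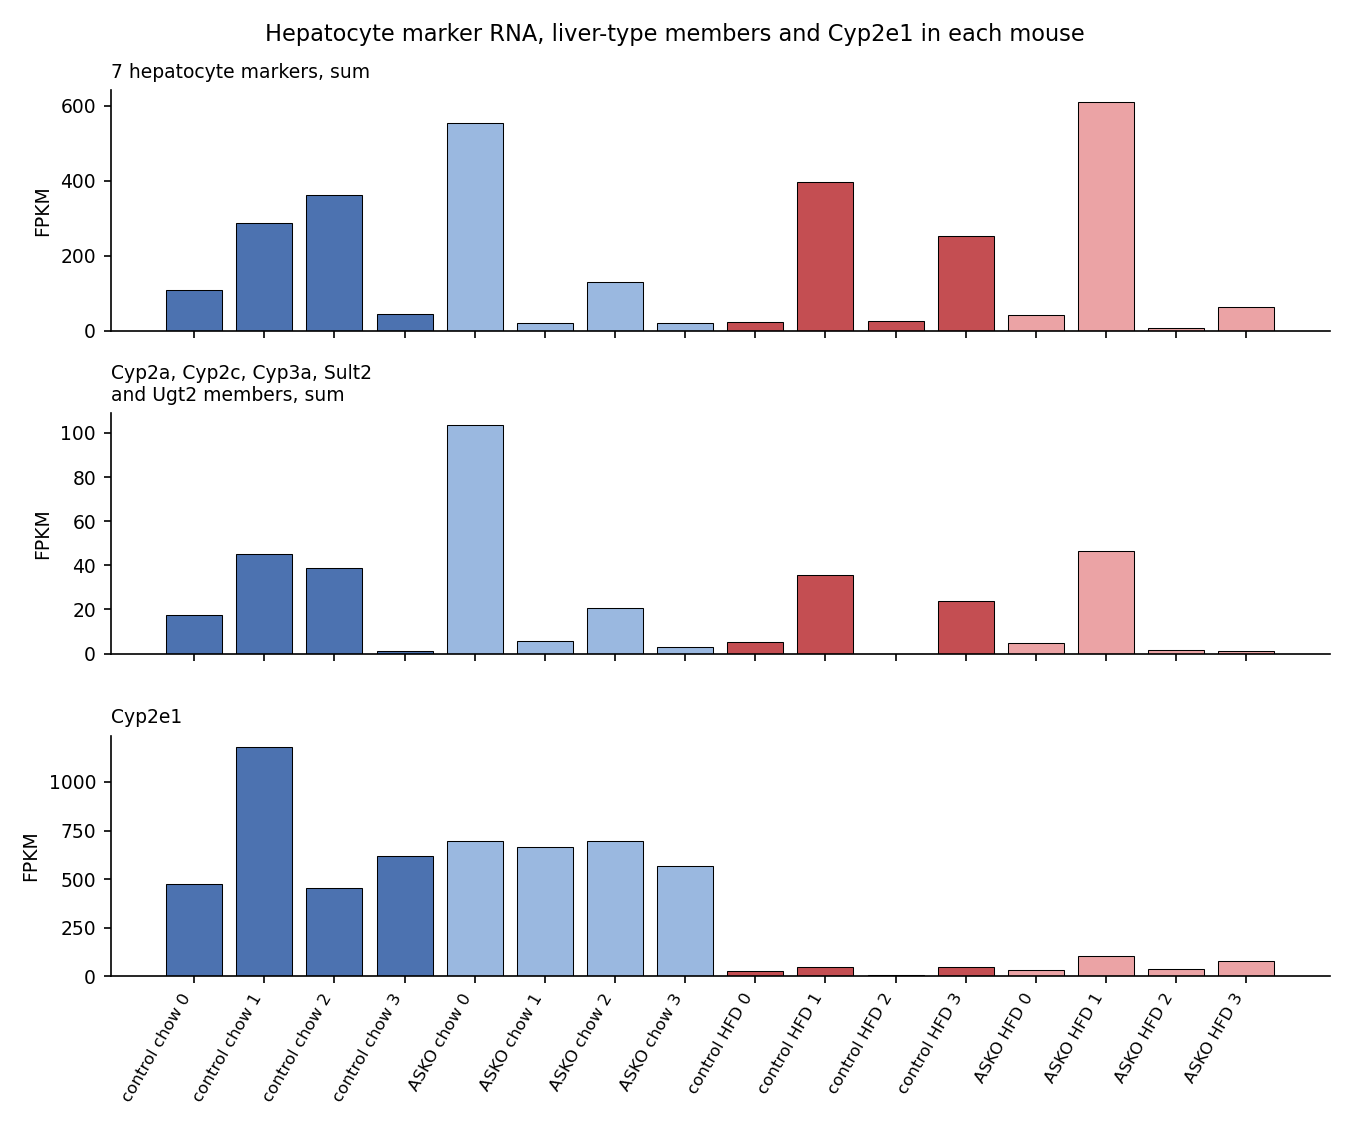
Summed FPKM of 7 hepatocyte markers (top), summed FPKM of 23 members named Cyp2a, Cyp2c, Cyp3a, Sult2 or Ugt2 (middle) and FPKM of Cyp2e1 (bottom), 1 bar per mouse, colored by group. The upper panels rise in the same mice of every group, such as ASKO chow 0 and ASKO HFD 1, while Cyp2e1 is at 455 FPKM or more in all 8 chow mice and at most 106 FPKM in the 8 HFD mice.

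The most abundant members differed between the diets. Over the 8 chow mice the highest means were those of Cyp2e1 (669.6 FPKM), Gsta3 (219.9 FPKM), the microsomal glutathione transferase gene Mgst1 (206 FPKM) and Sult1e1 (159 FPKM), and no other member reached a mean of 100 FPKM. Over the 8 HFD mice none reached it, and the highest means were those of Mgst1 (85.7 FPKM), Gsta3 (49.1 FPKM) and Cyp2e1 (48.1 FPKM). Over all 16 mice, 12 members had a mean of at least 10 FPKM. At the filter, 9 members reached 1 FPKM in exactly 4 mice and 7 in exactly 3. At the other end, 32 members were above 0 in at most 2 mice. The 102 members together took 0.172% to 0.311% of all FPKM in chow mice and 0.0464% to 0.123% in HFD mice.

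On chow, Cyp2e1 dominated the P450 family. It supplied 80.1% to 92.3% of the FPKM summed over 56 Cyp genes in the 8 chow mice, against 10.7% to 47.7% in the 8 HFD mice. The 55 other Cyp genes summed to 94.6 ± 37.4 FPKM on chow and 88.6 ± 26.3 FPKM on HFD (SD, n = 8 each), so the diets differed there by less than the spread between mice. In the table of all genes ordered by FPKM, Cyp2e1 stood at places 76 to 153 in chow mice and at places 612 to 4097 in HFD mice.

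**Figure D2:**
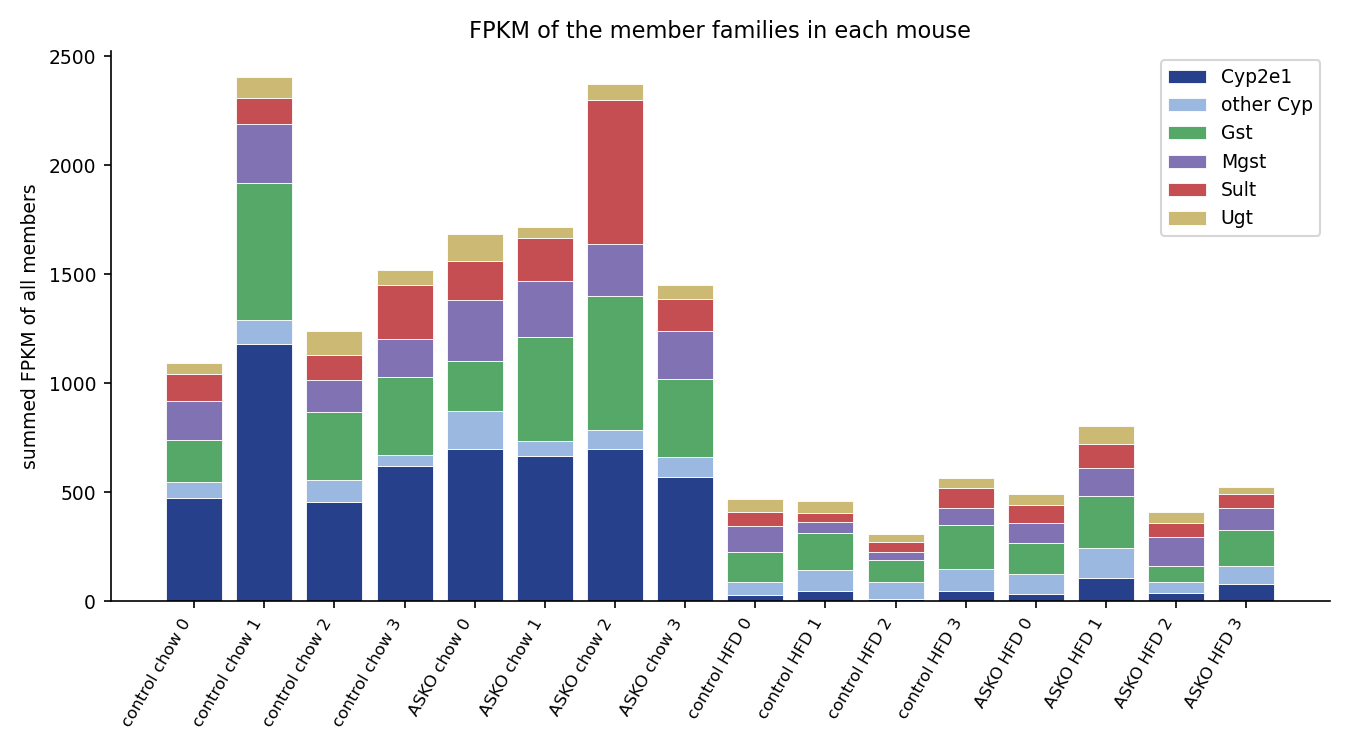
Summed FPKM of the 102 members in each mouse, split into Cyp2e1, the 55 other Cyp genes, and the Gst, Mgst, Sult and Ugt genes. Chow mice reach 1092 to 2404 FPKM and HFD mice 309 to 804 FPKM, with Cyp2e1 the largest share on chow.

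The first comparison asked how the members differed between HFD and chow, averaged over the genotypes. A gene was called when its limma adjusted p was below 0.05 and its log2 fold change was beyond 0.5 in size, on the log2(FPKM + 1) scale, which understates changes of low genes. Of the 58 tested members, 7 were lower on HFD, beside 3.04% of all 13148 tested genes (400 genes), and none was higher, beside 4.49% (590 genes). The 7 were Cyp2e1, Sult1e1, Gsta3, Gsta4, Gstm4, Mgst1 and Sult1a1, and 15 of the 58 members had an unadjusted limma p below 0.05, beside 2549 of all 13148 tested genes. The median log2 fold change was -0.23 over the tested members and 0.01 over all tested genes, and 41 members were below 0. In bulk tissue, fewer cells of a type and less RNA per cell cannot be told apart, and this holds for every result here.

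Within control mice, 5 members were lower on HFD (1.1% of all genes) and none was higher (1.81%). Within Mboat7 ASKO mice, 2 members, Cyp2e1 and Gsta3, were lower (1.3% of all genes) and none was higher (2.13%). No member differed in this effect between the genotypes in the interaction test, as described further on, so the unequal counts do not show that the genotypes responded differently. Fitted on just the mice of the groups compared, 2 members, Cyp2e1 and Gsta4, were called in control mice and 1, Cyp2e1, in Mboat7 ASKO mice. Adjusted over all 6 comparisons together, the average diet effect kept 4 members (Cyp2e1, Sult1e1, Gsta3 and Mgst1), and without a filter on low values Gsta4 and Gstm4 were lost. In 2 of the 58 members, Cyp2e1 and Mgst1, every HFD mouse lay below every chow mouse, beside 0.761% of all tested genes, and in none did every HFD mouse lie above, beside 1.46%.

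**Figure D3:**
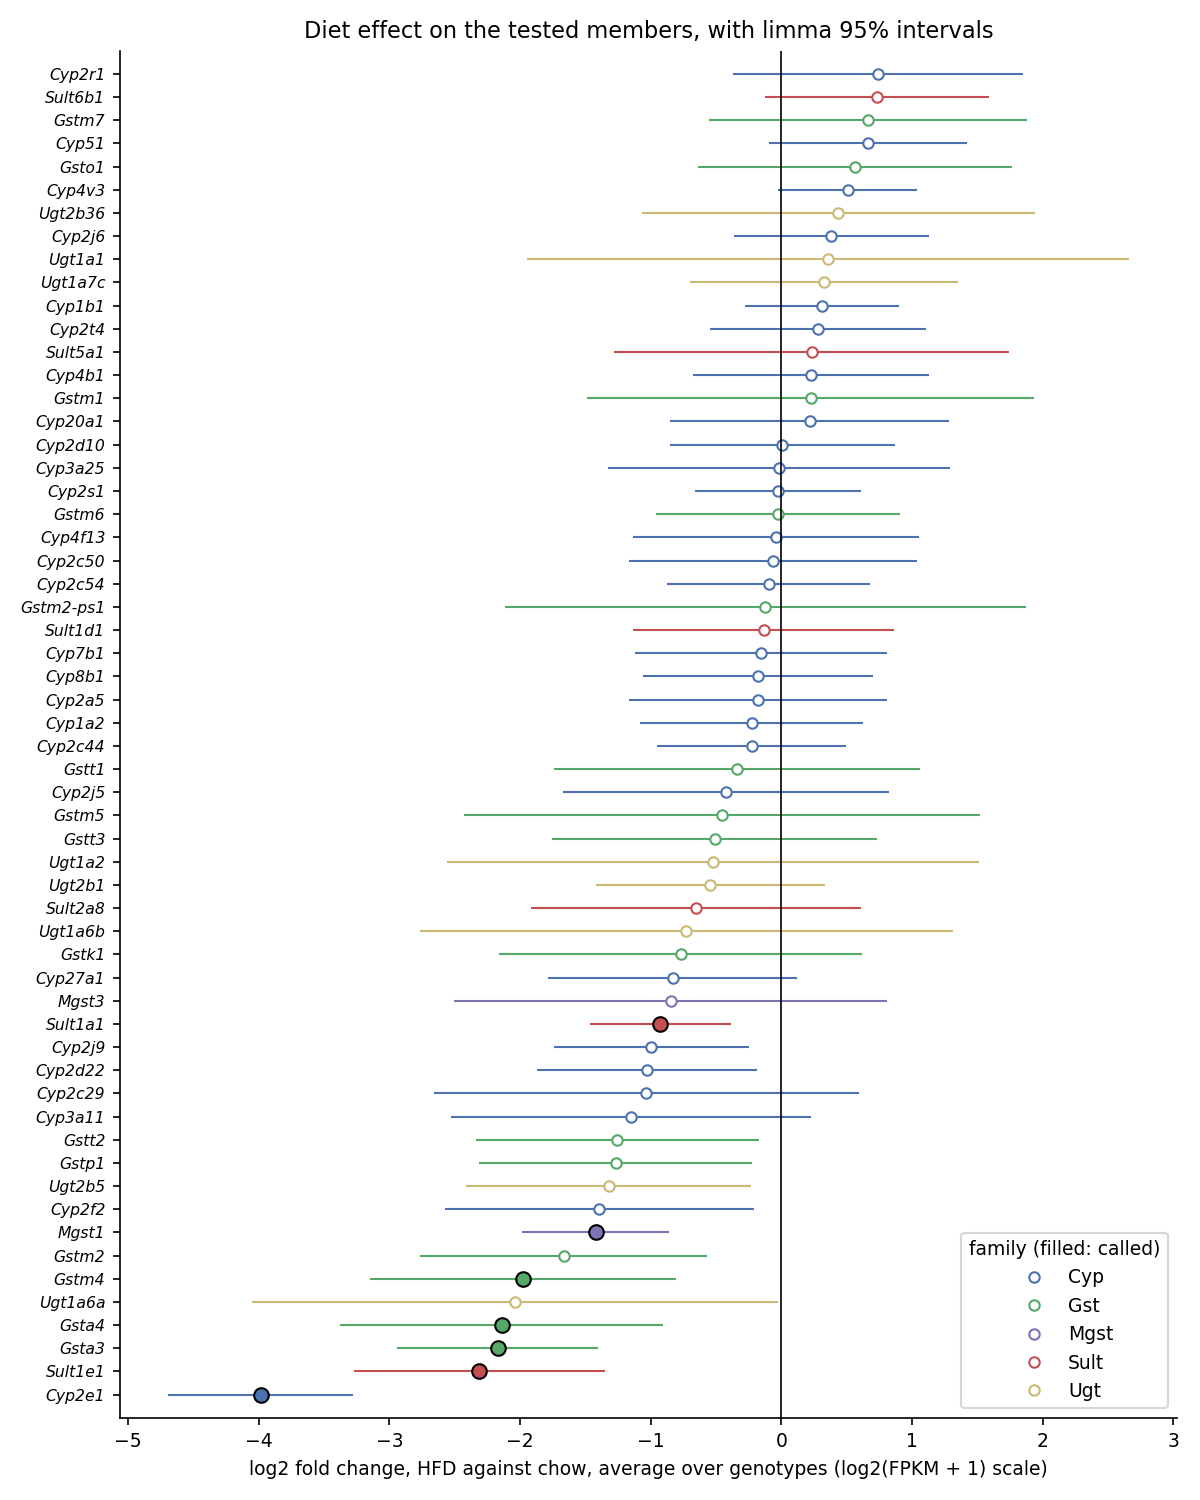
Log2 fold change on HFD against chow, averaged over genotypes, of each of the 58 tested members with its 95% interval from limma, on the log2(FPKM + 1) scale. The 7 called members (filled) all lie left of 0, from -3.99 for Cyp2e1 to -0.93 for Sult1a1, and the intervals of the highest members, Cyp2r1 and Sult6b1, include 0.

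Cyp2e1, the ethanol and acetone P450, had the largest log2 fold change between diets of the 58 tested members. It was listed at 475, 1178, 455 and 619.8 FPKM in control mice on chow and at 697, 665, 697 and 569 FPKM in Mboat7 ASKO mice on chow. The HFD values were 27.7, 47.7, 9.2 and 46.4 FPKM in control mice and 34, 106, 36.1 and 78.1 FPKM in Mboat7 ASKO mice. The lowest chow mouse, control chow 2, was above the highest HFD mouse, ASKO HFD 1, which was also the mouse with the most hepatocyte marker RNA. The mean was 669.6 ± 226 FPKM on chow and 48.1 ± 30.5 FPKM on HFD (SD, n = 8 each), a ratio of means of 13.9. The log2 fold change was -3.99 (SE 0.34, limma adjusted p = 9.84e-07), with -4.46 in control mice (adjusted p = 4.99e-05) and -3.51 in Mboat7 ASKO mice (adjusted p = 3.67e-04). Cyp2e1 was called in all 3 comparisons when any 1 of the 16 mice was left out and in the 10 mice with under 80 FPKM of Alb. With the adipocyte covariate described further on, the call in Mboat7 ASKO mice was lost (-3.28, adjusted p = 0.0531).

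**Figure D4:**
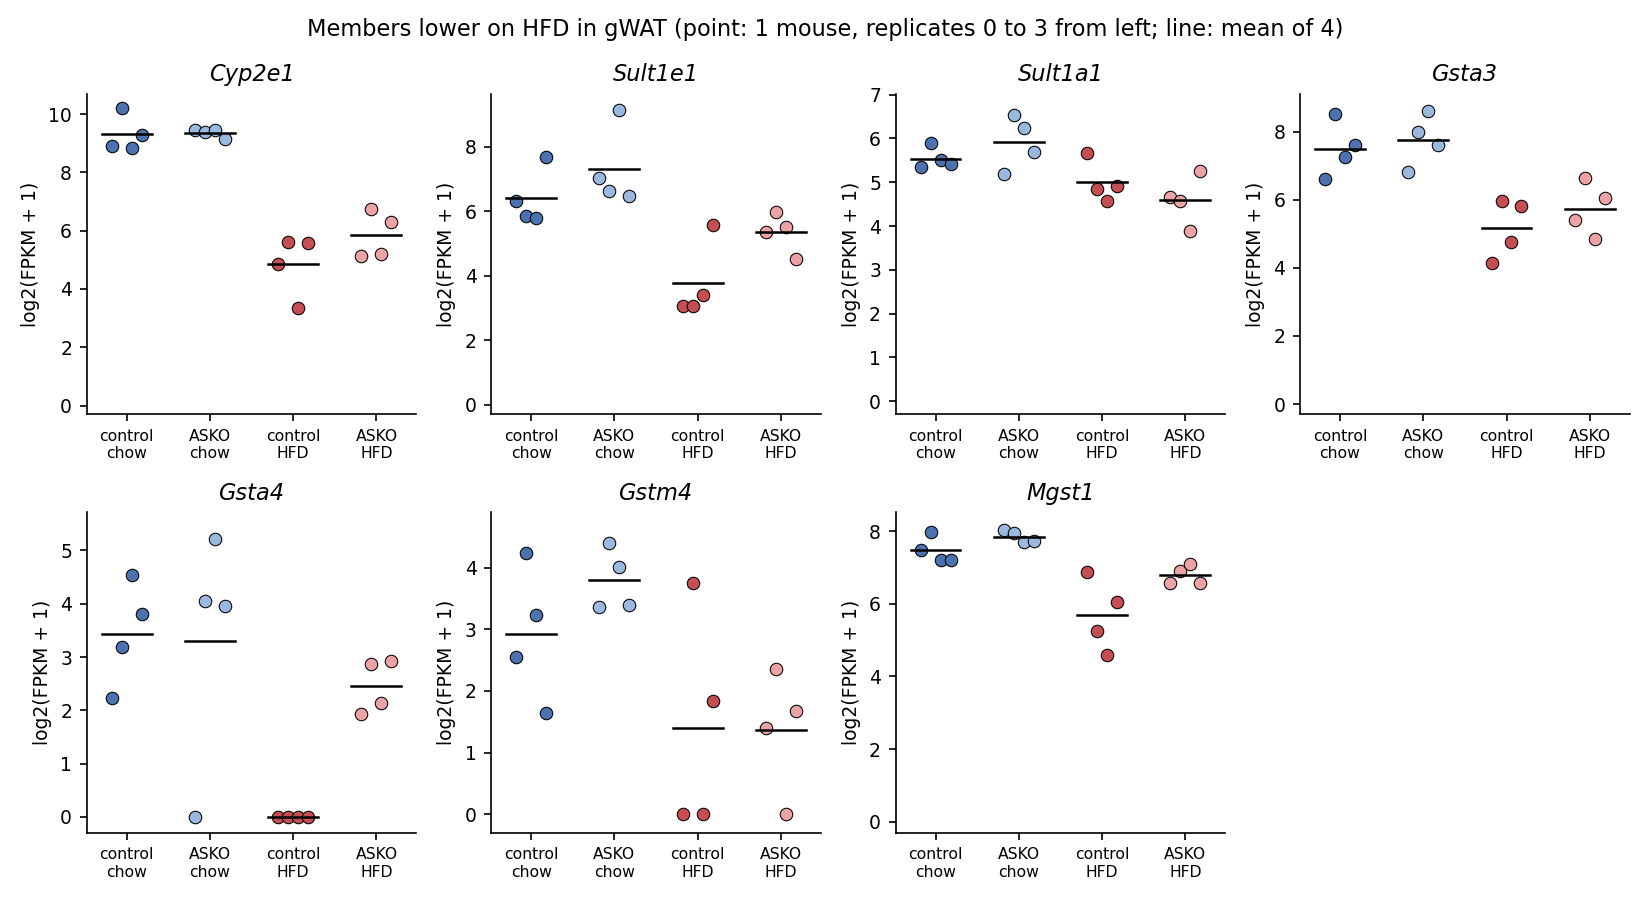
Level of the 7 called members in each mouse as log2(FPKM + 1), 1 point per mouse and a line at the mean of 4 mice, in control and Mboat7 ASKO mice on chow and HFD. Chow and HFD points do not overlap for Cyp2e1 and Mgst1, and Gsta4 is at 0 in all 4 control mice on HFD.

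The other P450 genes differed less. Among the 17 tested of 32 P450 genes grouped as acting mainly on foreign compounds, none was called on the average diet effect, and 13 had a log2 fold change below 0, with a median of -0.18. The most abundant of them, Cyp1b1, which also oxidizes estrogens, was at 3.3 to 7.78 FPKM on chow and 3.18 to 9.92 FPKM on HFD, ranges that overlap over most of their length. Cyp2j9 (adjusted p = 0.107) was called lower without ASKO chow 1 or control HFD 2, and Cyp2d22 (adjusted p = 0.149) without ASKO chow 3. On HFD, the values of Cyp2j9 were all 0 in Mboat7 ASKO mice, and those of Cyp2d22 all 0 in control mice. Cyp2t4, an orphan P450 whose exons overlap those of Egln2, was listed at 0 in all 4 control mice on chow and at 2.01, 2.37, 0 and 5.79 FPKM in control mice on HFD. In Mboat7 ASKO mice it was listed at 3.08, 0, 0 and 2.61 FPKM on chow and at 0 in all 4 on HFD. Its diet effect in control mice was not called by limma (adjusted p = 0.182) except when control HFD 2 was left out (adjusted p = 0.0498). That in Mboat7 ASKO mice was not called either (limma adjusted p = 0.446), and no fold is given against a group at 0.

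Of the 13 fatty acid and eicosanoid P450 genes of the Cyp4 family, 3 were tested and none was called on the average diet effect. Cyp4v3, a fatty acid hydroxylase, was at 13.6, 18.9, 23.6 and 11.5 FPKM in control mice on chow and at 20.6, 10.008, 15.7 and 21.6 FPKM in control mice on HFD. In Mboat7 ASKO mice it was at 7.41, 8.85, 12 and 16 FPKM on chow and at 18.9, 26.3, 17.9 and 28.5 FPKM on HFD. The diets overlapped in control mice but not in Mboat7 ASKO mice, where the log2 fold change was 1.01 (adjusted p = 0.153). Exons of Cyp4v3 overlap those of Gm45753 on the same strand, so its level is uncertain. Cyp4b1, which hydroxylates fatty acids and some toxins, was at 2.05 to 15.7 FPKM on chow and 2.15 to 17.4 FPKM on HFD.

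The P450 genes of sterol and bile acid metabolism, 4 tested of 6, and of vitamin A and D metabolism, 1 tested of 2, included no called gene. Cyp51, a step of cholesterol synthesis, had a log2 fold change of 0.66 (adjusted p = 0.346) and Cyp27a1, the mitochondrial sterol hydroxylase, one of -0.83 (adjusted p = 0.346). Exons of Cyp51 overlap those of Akap9 on the other strand, so its level is uncertain. The largest positive value of any member belonged to Cyp2r1, the vitamin D hydroxylase, at 0.74 (adjusted p = 0.50). Cyp2r1 was listed at 0, 1.41, 0 and 0 FPKM in Mboat7 ASKO mice on chow and at 2.07, 9.84, 2.2 and 3.9 FPKM in those on HFD, and its levels in control mice overlapped between diets. Cyp21a1, the adrenal steroid hydroxylase and the sole steroid hormone P450 in the list, was above 0 in 1 mouse.

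Sult1e1, which joins sulfate to estrogens and so makes them inactive at their receptor, was the most abundant sulfotransferase gene. It was listed at 79.4, 56.2, 54.7 and 204 FPKM in control mice on chow and at 129, 97, 567 and 86.8 FPKM in Mboat7 ASKO mice on chow. Values on HFD were 7.26, 7.25, 9.48 and 46.2 FPKM in control mice and 40.1, 61.5, 44.3 and 22 FPKM in Mboat7 ASKO mice. The diets overlapped, since ASKO HFD 1 was above control chow 1 and control chow 2, and 1 mouse stood far above its group in 3 groups (control chow 3, ASKO chow 2 and control HFD 3). The mean was 159 ± 172 FPKM on chow and 29.8 ± 21 FPKM on HFD (SD, n = 8 each), and ASKO chow 2 alone sets much of the chow SD. The log2 fold change was -2.31 (SE 0.46, limma adjusted p = 0.00358) and stayed called when any 1 mouse was left out, from -2.61 to -2.01.

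Within genotypes the Sult1e1 result was less firm. The log2 fold change was -2.65 in control mice (adjusted p = 0.0312) and -1.97 in Mboat7 ASKO mice (adjusted p = 0.118, not called). In control mice the call was lost when control chow 0, 1 or 3 or control HFD 0, 1 or 2 was left out (adjusted p = 0.0517 to 0.110), and also with the replicate block (adjusted p = 0.0555), which is described with the other settings at the end, without a filter on low values and with the hepatocyte covariate, while the log2 fold change stayed between -3.25 and -2.23 without any 1 mouse. In the mice with under 80 FPKM of Alb it was -3.79, and not called with 2 control mice per diet.

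Sult1a1, a sulfotransferase for phenols, was called on the average diet effect by a narrow margin. It was listed at 39.7, 59, 44.4 and 41.4 FPKM in control mice on chow and at 35.5, 91.2, 74 and 50.5 FPKM in Mboat7 ASKO mice on chow. On HFD it was listed at 49.7, 27.8, 22.8 and 28.9 FPKM in control mice and at 24.3, 22.9, 13.8 and 37.3 FPKM in Mboat7 ASKO mice. The highest HFD mouse, control HFD 0, lay within the chow range. The log2 fold change was -0.93 (SE 0.26, limma adjusted p = 0.0332), and the call was lost without 11 of the 16 mice, each left out in turn (control chow 1, 2 or 3, ASKO chow 1 or 2, control HFD 1, 2 or 3, ASKO HFD 0, 1 or 2). Where the call was lost, the log2 fold change was -0.95 to -0.81 and the limma adjusted p 0.0504 to 0.0727. The call was also lost with upper-quartile (-0.88) and median-ratio (-0.88) scaling, in the mice with under 80 FPKM of Alb (-0.90), without an intensity trend and with the replicate block. In Mboat7 ASKO mice it was -1.31 (adjusted p = 0.0575), called without ASKO chow 0 (-1.55), control HFD 0 (-1.31) or ASKO HFD 3 (-1.53). Exons of Sult1a1 overlap those of Sgf29 on the other strand, and the library kit was directional, but whether the counting used strand is not given in the sources used here, so its level is uncertain.

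Of the other sulfotransferase genes, Sult6b1 was above 0 in all mice. It was at 1.26 to 5.42 FPKM on chow and 1.13 to 14.1 FPKM on HFD, with a log2 fold change of 0.73 (adjusted p = 0.357). Sult1d1, Sult2a8 and Sult5a1 passed the filter and were not called, and 3 of the 9 sulfotransferase genes did not pass it.

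The alpha-class glutathione transferases, Gsta3 and Gsta4, were both called lower on HFD on the average diet effect. Gsta3, whose enzyme conjugates electrophiles and isomerizes steroids, was listed at 97.3, 368, 151 and 194 FPKM in control mice on chow and at 112, 252, 393 and 194 FPKM in Mboat7 ASKO mice on chow. The HFD values were 16.7, 60.8, 26.1 and 55.5 FPKM in control mice and 41.1, 98.9, 28 and 65.8 FPKM in Mboat7 ASKO mice. The diets touched in 1 pair: ASKO HFD 1 was just above control chow 0. The mean was 219.9 ± 111 FPKM on chow and 49.1 ± 26.8 FPKM on HFD (SD, n = 8 each), and the log2 fold change was -2.17 (SE 0.36, limma adjusted p = 9.55e-04), called without any 1 mouse and in the mice with under 80 FPKM of Alb, where the control call was lost (-2.66, adjusted p = 0.122). Within genotypes it was -2.33 in control mice (adjusted p = 0.0176), lost without control chow 1 or 3 or control HFD 0 or 2 (adjusted p = 0.0503 to 0.0712), and -2.02 in Mboat7 ASKO mice (adjusted p = 0.0381), lost without 8 of the 16 mice (control chow 2 or 3, ASKO chow 1, 2 or 3, ASKO HFD 0, 2 or 3, adjusted p = 0.0505 to 0.125).

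Gsta4, whose enzyme prefers hydroxynonenal and like aldehydes from oxidized lipids, was listed at 3.67, 8.1, 22.2 and 13 FPKM in control mice on chow and at 0, 15.5, 36.3 and 14.6 FPKM in Mboat7 ASKO mice on chow. On HFD it was listed at 0 in all 4 control mice and at 2.81, 6.31, 3.38 and 6.62 FPKM in the Mboat7 ASKO mice. Since values of 0 also occur for genes that every cell uses, no fold is given for control mice. Gsta4 was called in the limma test of the average diet effect (adjusted p = 0.0323) and in control mice (adjusted p = 0.0298). The average call was lost without 11 of the 16 mice, each left out in turn (control chow 1, 2 or 3, ASKO chow 1, 2 or 3, control HFD 1, 2 or 3, ASKO HFD 0 or 2, adjusted p = 0.0507 to 0.0718), and the call in control mice without control chow 1, 2 or 3 or any control HFD mouse (adjusted p = 0.0615 to 0.103). In the mice with under 80 FPKM of Alb, the average call was kept and the call in control mice was lost (adjusted p = 0.199).

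Mgst1, a glutathione transferase of the endoplasmic reticulum and outer mitochondrial membranes that also reduces lipid peroxides, separated the diets in every mouse. It was listed at 177, 251, 148 and 147 FPKM in control mice on chow and at 259, 247, 207 and 209 FPKM in Mboat7 ASKO mice on chow. Values on HFD were 117, 37.1, 22.9 and 65.5 FPKM in control mice and 93.6, 119.5, 136 and 93.4 FPKM in Mboat7 ASKO mice. The lowest chow mouse, control chow 3, was above the highest HFD mouse, ASKO HFD 2. The mean was 206 ± 45.3 FPKM on chow and 85.7 ± 40.6 FPKM on HFD (SD, n = 8 each), a ratio of means of 2.4, and the log2 fold change was -1.42 (SE 0.27, limma adjusted p = 0.00249). It stayed called when any 1 mouse was left out and was -1.33, not called, in the mice with under 80 FPKM of Alb. In control mice it was -1.78 (adjusted p = 0.0139), lost without control chow 1 or control HFD 1 (adjusted p = 0.0522 to 0.0548) and in the mice with under 80 FPKM of Alb (-1.61, adjusted p = 0.437), and in Mboat7 ASKO mice -1.06 (adjusted p = 0.159, not called). Mgst3, a relative, was listed at 0 in 5 mice over 3 groups, and Mgst2 was above 0 in 2 mice and not tested.

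Some mu-class genes share sequence. Of all stretches of 50 bases in Gstm1 transcripts, 18.9% occur in transcripts of other genes, and of those in the pseudogene Gstm2-ps1 46.9%. The levels of these 2 genes are therefore uncertain, while Gstm4 shares no such stretch. Gstm4 was listed at 4.85, 17.9, 8.44 and 2.13 FPKM in control mice on chow and at 9.24, 20.1, 15.2 and 9.46 FPKM in Mboat7 ASKO mice on chow. On HFD it was listed at 0, 12.4, 0 and 2.56 FPKM in control mice and at 1.63, 4.14, 0 and 2.2 FPKM in Mboat7 ASKO mice. The limma log2 fold change was -1.98 (adjusted p = 0.0364), a call lost without 11 of the 16 mice, each left out in turn (control chow 0, 1 or 2, ASKO chow 1, 2 or 3, control HFD 0 or 2, ASKO HFD 0, 2 or 3, adjusted p = 0.0509 to 0.0802), and with a pseudocount of 0.1, where the value was -3.29. It was kept in the mice with under 80 FPKM of Alb. The control HFD mice left there, control HFD 0 and 2, were listed at 0, so no fold is given and the kept call rests in part on values of 0.

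Gstm2, the most abundant mu-class gene, was listed at 11.7, 21.7, 20.1 and 34.7 FPKM in control mice on chow and at 27.4, 49.8, 30.036 and 30.5 FPKM in Mboat7 ASKO mice on chow. The HFD values were 10.001, 9.06, 0 and 19.3 FPKM in control mice and 24, 12.3, 8.19 and 3.32 FPKM in Mboat7 ASKO mice. The diets overlapped, and the log2 fold change of -1.67 was not called (adjusted p = 0.0622). It was called without control HFD 3 (-1.93) or ASKO HFD 0 (-1.87), and when only genes with at least 5 FPKM in 4 mice were tested. Gstm7, listed at 0 in all 4 control mice on chow, was not called (adjusted p = 0.601). It was at 0 to 5.68 FPKM on chow and 0 to 10.9 FPKM on HFD.

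Among the other glutathione transferases, Gstp1, the pi-class enzyme, was at 6.96 to 85.3 FPKM on chow and 4.0 to 31.9 FPKM on HFD. Its log2 fold change was -1.27 (adjusted p = 0.151), called (-1.57) when ASKO chow 0 was left out but when no other mouse was, and with the adipocyte covariate described further on it was 0.20. It shares 33.7% of its 50-base stretches, mostly with Gstp2, so its level is uncertain. The theta class (3 tested of 4), the kappa class (1 of 1) and the omega class (1 tested of 2) held no called gene, and Gsto1, an omega-class enzyme, was listed at 0 to 49.5 FPKM on chow and 7.24 to 31 FPKM on HFD.

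The UDP-glucuronosyltransferase genes, which join glucuronate to bilirubin, steroids and drugs, included no called member among 8 tested. The Ugt1a genes are made from 1 locus by joining different first exons to the same later exons, and 52.1% to 79.8% of their 50-base stretches are shared. Levels of single Ugt1a genes are therefore uncertain, and they lay between 0 and high levels from mouse to mouse: Ugt1a1, the bilirubin enzyme, was listed at 0, 16.8, 12.1 and 0.016 FPKM in control mice on chow, and Ugt1a6a, which takes small phenols, at 30.4, 49.2, 9.98 and 18.6 FPKM in the same mice. Over the 8 mice of each diet, Ugt1a6b was at 0 to 40.5 FPKM on chow and 0 to 20.8 FPKM on HFD, and Ugt1a7c at 0 to 16.8 FPKM and 2.82 to 16.4 FPKM. Their sum over the 8 Ugt1 genes was steadier. It was 48.5, 82.8, 105 and 67.7 FPKM in control mice on chow and 97.8, 52.5, 70.2 and 63.7 FPKM in Mboat7 ASKO mice on chow. On HFD it was 57.4, 48.5, 37.7 and 43 FPKM in control mice and 46.6, 62.2, 49 and 28.6 FPKM in Mboat7 ASKO mice. The sums were lower on HFD in most mice, with overlap between the diets, and no test was made on a sum of members.

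Genes of adipocytes themselves moved with diet, and their values stand beside the member results. Adipoq, which codes for adiponectin, was at 986, 1871, 1448 and 1351 FPKM in control mice on chow and at 679, 1226, 961 and 1379.5 FPKM in Mboat7 ASKO mice on chow. Values on HFD were 539, 367, 432 and 414 FPKM in control mice and 462, 318, 395 and 415 FPKM in Mboat7 ASKO mice. Its log2 fold change was -1.52 (adjusted p = 3.69e-05), while Lep, the leptin gene, rose by 1.78 (adjusted p = 9.28e-05). Of the 8 adipocyte markers, 6 were called lower and 1 higher on HFD.

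Relative to Adipoq in the same mouse, the called members differed from each other. The ratio of Cyp2e1 to Adipoq was 0.314 to 1.03 on chow (median 0.512) and 0.0213 to 0.333 on HFD (median 0.102), with 1 HFD mouse, ASKO HFD 1, above the lowest chow mouse. The ratio of Mgst1 to Adipoq was 0.102 to 0.382 on chow (median 0.166) and 0.0531 to 0.375 on HFD (median 0.21). For Sult1e1 it was 0.0301 to 0.59 on chow (median 0.0798) and 0.0135 to 0.193 on HFD (median 0.0699), and for Gsta3 0.0987 to 0.408 on chow (median 0.154) and 0.031 to 0.311 on HFD (median 0.112). The diets overlapped for Sult1e1, Gsta3 and Mgst1. With the mean log2 level of the 8 adipocyte markers as a covariate, an alternative chosen after seeing the data, 2 members were called on the average diet effect, Cyp2e1 (log2 fold change -3.79) and Sult1e1 (-3.21). Gsta3 (-1.84), Mgst1 (-0.98), Gstm4 (-1.90), Sult1a1 (-0.06) and Gsta4 were then not called. Of the variance of this covariate over mice, 66.4% lay between the diets, so the covariate and the diet can be told apart only in part.

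Macrophage markers differed with diet as well, with 7 of 8 called higher on HFD on the average diet effect. Of 5 tested mesothelial markers, 1 was called, lower on HFD. The 8 macrophage markers summed to 137 to 195 FPKM in the 8 chow mice and 367 to 683 FPKM in the 8 HFD mice, without overlap, and C1qc, a complement gene, was the most abundant. The 6 mesothelial markers, led by Upk3b, summed to 10.016 to 35.6 FPKM on chow and 0 to 12.7 FPKM on HFD. The part of these cells in the member results was not tested, because diet took 95.1% of the variance of the mean log2 macrophage level over mice, and the covariate and the diet cannot be told apart. With that covariate, also added after seeing the data, limma called 0 members on any diet comparison, and the log2 fold change of Cyp2e1 was -8.17. The 7 progenitor and fibroblast markers summed to 166 to 233 FPKM on chow and 224 to 406 FPKM on HFD, with Dpt the most abundant. The 6 endothelial markers, led by Pecam1, summed to 21.7 to 63.7 FPKM on chow and 25.3 to 68.7 FPKM on HFD.

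Markers of some other cells were low. Of 6 T and B cell markers 4 are in the table, led by Cd79a, and they summed to at most 6.12 FPKM in any mouse. Of 5 skeletal muscle markers Acta1 alone is in the table, at 0 to 11.7 FPKM. Leydig cell markers were higher: of 6, 2 are in the table, and their summed level was 18.6 to 84 FPKM on chow and 31 to 187 FPKM on HFD. The more abundant of the pair, Insl3, shares exons with Jak3 on the same strand.

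The next comparisons asked whether Mboat7 ASKO mice differed from control mice on the same diet. On HFD, 0 of 58 members were called by limma (0.00761% of all genes, the 1 gene Cdk20, named after its value was seen), and 6 members had an unadjusted p below 0.05, beside 677 of all 13148 tested genes. On chow, 0 of 58 were called (0.00761% of all genes), and 4 had an unadjusted p below 0.05, beside 631 of all tested genes. In 2 members, Gsta4 and Gstm6, every Mboat7 ASKO mouse on HFD lay apart from every control mouse on HFD, beside 3.38% of all tested genes, and on chow this held for 1 member, Cyp8b1, beside 2.19%. The shares of such separated members are near those of all genes. The diet and genotype comparisons use the same mice and so share their values. The study, which tested reads with Cufflinks, reports genes that differ between the genotypes on HFD, among them Cd68, Itgax and Clec7a. The counts here are those of the limma fit on FPKM and do not show that the genotypes are alike.

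Of the 7 members called on diet, 5 had higher and 2 lower mean values in Mboat7 ASKO than in control mice on HFD, and none passed the test. Sult1e1 was at 7.26, 7.25, 9.48 and 46.2 FPKM in control mice and 40.1, 61.5, 44.3 and 22 FPKM in Mboat7 ASKO mice, which overlapped through control HFD 3 alone. Its log2 difference was 1.58 (95% interval 0.22 to 2.94, adjusted p = 0.901). The log2 difference was 1.09 for Mgst1 (95% interval 0.30 to 1.89, adjusted p = 0.856), where control HFD 0 lay among the Mboat7 ASKO mice. For Cyp2e1 it was 1.01 (95% interval 0.00 to 2.01, adjusted p = 0.963) and for Gsta3 0.57 (95% interval -0.52 to 1.66, adjusted p = 0.993), and for both the groups overlapped. Gsta4, at 0 in the 4 control mice on HFD and at 2.81 FPKM or more in the 4 Mboat7 ASKO mice on HFD, was not called either (adjusted p = 0.856). The 2 lower ones were Sult1a1, with a log2 difference of -0.40 (adjusted p = 0.993), and Gstm4, with one of -0.04 (adjusted p = 1.0).

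Between genotypes on HFD, 6 of the 7 mu-class genes had a log2 difference below 0, beside 31 of 58 tested members and 48.2% of all tested genes. Gstm2 had one above 0 (0.64, adjusted p = 0.993), and no mu-class gene was called. Gstm6 was listed at 3.85, 3.0, 5.65 and 6.68 FPKM in control mice on HFD and at 0 in all 4 Mboat7 ASKO mice on HFD (limma adjusted p = 0.624). Gstm1 was listed at 17.1, 22.1, 12.5 and 12.9 FPKM in control mice and at 0, 8.21, 0 and 18 FPKM in Mboat7 ASKO mice on HFD, a log2 difference of -2.20 (adjusted p = 0.973). Summed over the 7 mu-class genes, the levels were 61.3, 73.7, 41.9 and 69.9 FPKM in control mice and 38.1, 29.7, 14.1 and 43.6 FPKM in Mboat7 ASKO mice on HFD. The sums overlapped in 1 pair of mice, include the uncertain levels of Gstm1 and Gstm2-ps1, and were not tested.

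On chow, the largest positive difference belonged to Cyp8b1, the hydroxylase of cholic acid synthesis. It was at 3.25, 1.92, 2.49 and 3.23 FPKM in control mice and at 20.6, 9.24, 8.93 and 11.5 FPKM in Mboat7 ASKO mice, with no overlap. The log2 difference was 1.81 (95% interval 0.57 to 3.05, adjusted p = 0.872), which was not called. On HFD, Cyp8b1 was at 4.09, 12.8, 7.29 and 8.18 FPKM in control mice and at 4.08, 7.35, 7.19 and 0 FPKM in Mboat7 ASKO mice, which overlapped.

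In the interaction test, which asks whether the diet effect differed between the genotypes, 0 of 58 members were called by limma (0% of all genes) and 5 had an unadjusted p below 0.05, beside 828 of all 13148 tested genes. The lowest adjusted p of a member was 0.655, shared by Cyp8b1 and Cyp2t4. For Cyp8b1 the difference between the diet effects was -2.79 on the log2 scale (95% interval -4.55 to -1.04, adjusted p = 0.655) and for Cyp2e1 it was 0.95 (95% interval -0.47 to 2.37, adjusted p = 0.862). The largest positive value, that of Ugt1a6a (3.31), and the largest negative one, that of Ugt1a1 (-3.32), both come from the Ugt1 locus with its shared exons. A failed test does not show that the genotypes responded alike. The intervals allow differences of several log2 units for some members, such as Ugt1a1 (95% interval -7.93 to 1.28).

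Genes that work with the members were taken as 6 lists, whose calls stand beside 3.04% of all tested genes called lower and 4.49% called higher on the average diet effect. Of 19 genes for P450 electron donors and heme, all tested, 3 were called lower and 1 higher on the average diet effect, with a median log2 fold change of -0.03. Por, the reductase of the P450 enzymes in the endoplasmic reticulum, was at 37.7, 33.7, 24.9 and 27.7 FPKM in control mice on chow and 6.99, 27, 11.2 and 10.9 FPKM in control mice on HFD. In Mboat7 ASKO mice it was at 14.2, 25.9, 16 and 44.4 FPKM on chow and 7.11, 14.7, 6.37 and 9.66 FPKM on HFD, and the diets overlapped in part. Its log2 fold change was -1.24 (adjusted p = 0.0177), beside -1.28 for Cyb5a, the cytochrome b5 that passes electrons to some P450 enzymes (adjusted p = 0.0268), and -0.86 for Pgrmc2, which carries heme (adjusted p = 0.0474). Hmox1, which breaks heme down, was the gene called higher, at 0 to 5.09 FPKM on chow and 2.32 to 18.7 FPKM on HFD, and it was listed at 0 in 5 chow mice. The most abundant gene of the list, Cyb5r3, a cytochrome b5 reductase, had a log2 fold change of -0.03 (adjusted p = 0.948).

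Of 19 genes for glutathione supply and targets of the factor Nrf2, 15 were tested and 1 was called, Gpx3, the extracellular glutathione peroxidase. Gpx3 was at 139.9, 125, 199.9 and 129 FPKM in control mice on chow and 141, 98.7, 151 and 288 FPKM in Mboat7 ASKO mice on chow. On HFD it was at 62, 44.3, 34.7 and 53.7 FPKM in control mice and 39, 47.5, 49.3 and 63.8 FPKM in Mboat7 ASKO mice, below every chow mouse. Its log2 fold change was -1.63 (adjusted p = 1.43e-04), while Gpx1, the most abundant gene of the list and the cytosolic peroxidase, had one of 0.11 (adjusted p = 0.877). The median of the list was 0.02, and none of the genes of glutathione synthesis in it was called.

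Of 11 genes for sulfate and glucuronate supply, 10 are in the table and were tested, and 1 was called higher, Gusb, the lysosomal glucuronidase that removes glucuronate and the most abundant of the list. Gusb was at 3.73 to 25.6 FPKM on chow and 28 to 70.2 FPKM on HFD, without overlap (log2 fold change 1.85, adjusted p = 0.00115). Of 16 xenobiotic sensors, 14 are in the table, 10 were tested and none was called. Their median log2 fold change was -0.54, with 9 of 10 below 0. The most abundant was Nr1i3, which codes for the receptor CAR, at 193 to 402 FPKM on chow and 183 to 298 FPKM on HFD, but its exons overlap those of Tomm40l on the other strand and its level is uncertain.

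Of 17 relatives outside the name rule, 14 were tested and 2 were called higher. Hpgds, a sigma-class glutathione transferase that makes prostaglandin D, was at 0 to 4.6 FPKM on chow and 5.35 to 22.2 FPKM on HFD, without overlap (log2 fold change 2.10, adjusted p = 0.00149). Tbxas1, the P450 that makes thromboxane, was listed at 0 in 6 chow mice and at 1.68 to 21.3 FPKM on HFD (adjusted p = 0.00207). Macrophages are known to express both genes, and the sum of the macrophage markers above was also higher in every HFD mouse than in any chow mouse. The part of these cells in the values was not tested. Gstz1, a zeta-class enzyme of tyrosine breakdown and the most abundant of the list, had a log2 fold change of -0.77 (adjusted p = 0.0622), and its exons overlap those of Pomt2 on the other strand.

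Of 27 other detoxification enzymes, 26 were tested, 6 were called lower and none higher, beside the same 3.04% and 4.49% of all tested genes. Ces1d, a carboxylesterase that also hydrolyzes triglyceride, was at 153, 263, 197 and 145 FPKM in control mice on chow and 134, 179, 123 and 215 FPKM in Mboat7 ASKO mice on chow. The HFD values were 25.2, 34.1, 44.9 and 29.7 FPKM in control mice and 39.4, 39.8, 29.998 and 50.9 FPKM in Mboat7 ASKO mice, below every chow mouse (log2 fold change -2.22, adjusted p = 2.07e-06). The other 5 were Fmo1, a flavin monooxygenase (-1.44, adjusted p = 0.00835), the aldehyde dehydrogenases Aldh1a1 (-1.02, adjusted p = 0.0161) and Aldh2 (-1.15, adjusted p = 0.0121), the carboxylesterase Ces1f (-1.73, adjusted p = 0.0188) and the drug exporter Abcb1a (-0.97, adjusted p = 0.0311). Akr1a1, an aldehyde reductase and the most abundant of the list, had a log2 fold change of 0.45 (adjusted p = 0.518). No gene of the 6 lists was called between genotypes on chow or on HFD.

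**Figure D5:**
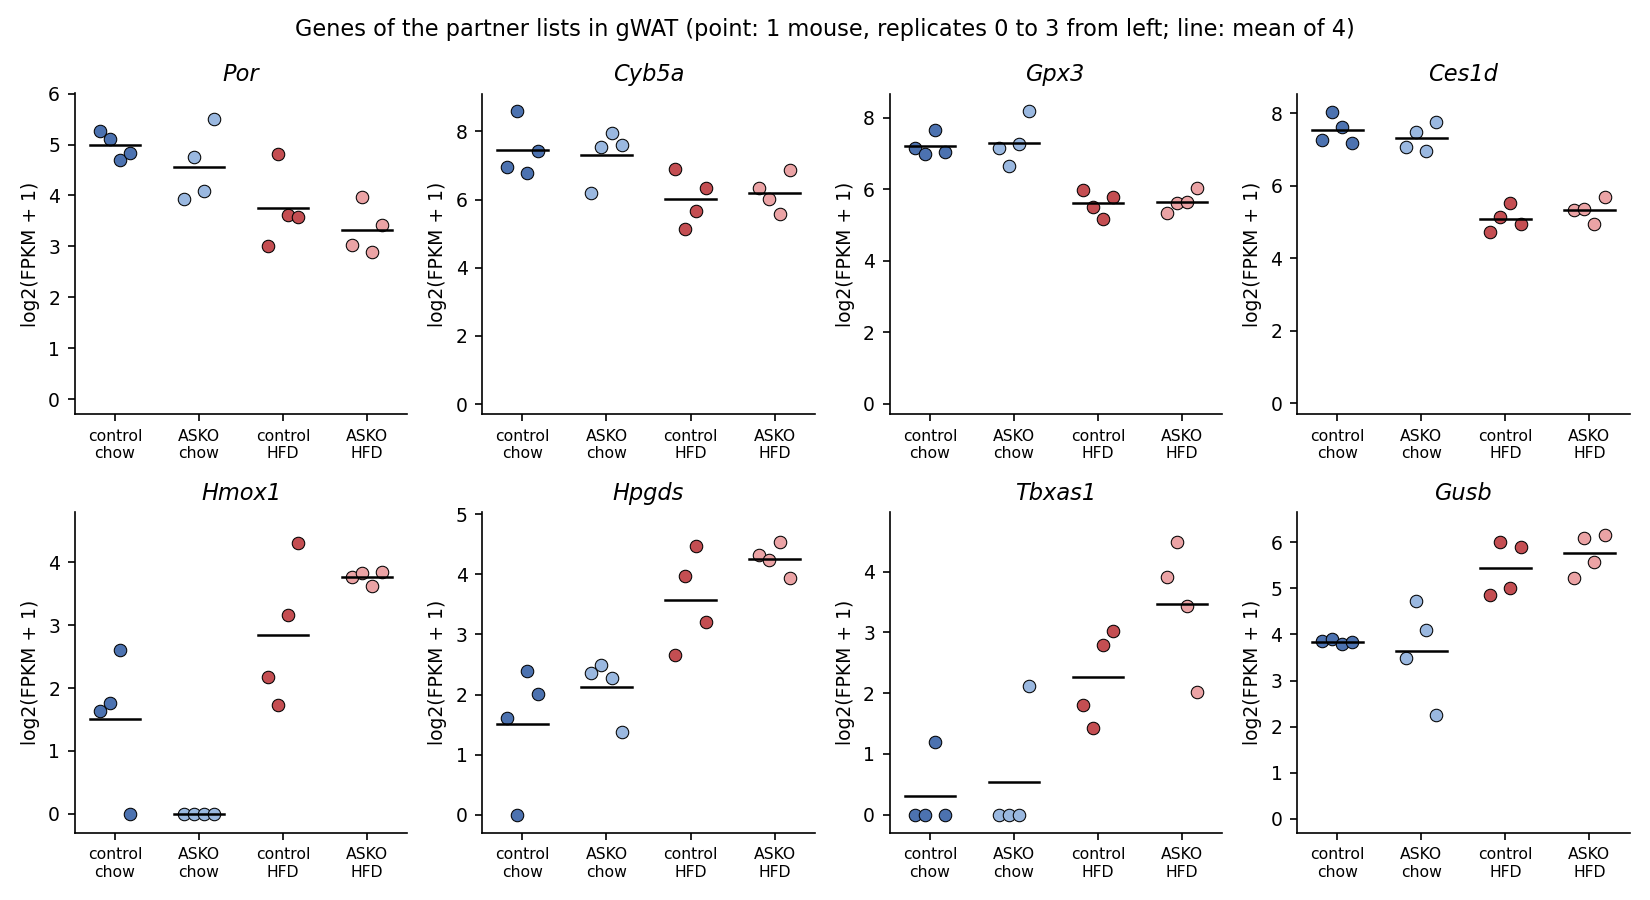
Level of 8 genes of the partner lists in each mouse as log2(FPKM + 1), 1 point per mouse and a line at the mean of 4 mice. Gpx3 and Ces1d are lower in every HFD mouse than in any chow mouse, Hpgds and Gusb higher, and Por and Cyb5a overlap in part.

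The promoters of the members that stayed called on the average diet effect without any 1 mouse are printed with their matches to 2 motifs. The sequences are the 250 bases upstream of the RefSeq start on build GRCm38.p6, on the strand of the gene, and capitals mark matches on either strand to GCGTG, the core of the dioxin response element bound by the Ah receptor, or to TGACNNNGC, the core of the antioxidant response element bound by Nrf2, as spelled here with N for any base. They come from chr7:140763569-140763818 (+ strand) for Cyp2e1, chr5:87591612-87591861 (- strand) for Sult1e1, chr1:21240335-21240584 (+ strand) for Gsta3 and chr6:138140277-138140526 (+ strand) for Mgst1.
Cyp2e1: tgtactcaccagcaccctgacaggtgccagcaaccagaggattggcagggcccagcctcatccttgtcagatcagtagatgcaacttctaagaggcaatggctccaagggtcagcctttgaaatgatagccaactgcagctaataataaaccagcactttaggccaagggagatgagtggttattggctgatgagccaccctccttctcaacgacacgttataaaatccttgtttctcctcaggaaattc
Sult1e1: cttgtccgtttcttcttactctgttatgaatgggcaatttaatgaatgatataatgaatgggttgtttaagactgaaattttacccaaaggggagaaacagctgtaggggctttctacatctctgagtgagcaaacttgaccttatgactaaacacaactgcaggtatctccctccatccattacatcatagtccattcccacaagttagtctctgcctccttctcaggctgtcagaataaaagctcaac
Gsta3: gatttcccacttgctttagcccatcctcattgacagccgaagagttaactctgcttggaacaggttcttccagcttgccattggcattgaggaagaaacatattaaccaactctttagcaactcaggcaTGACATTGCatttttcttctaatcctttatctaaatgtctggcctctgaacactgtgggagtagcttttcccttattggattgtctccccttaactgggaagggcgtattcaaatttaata
Mgst1: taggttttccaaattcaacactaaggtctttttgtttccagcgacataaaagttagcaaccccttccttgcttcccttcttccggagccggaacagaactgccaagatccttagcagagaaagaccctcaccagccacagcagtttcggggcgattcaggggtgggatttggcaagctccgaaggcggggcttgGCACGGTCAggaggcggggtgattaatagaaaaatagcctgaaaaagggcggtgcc

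The Gsta3 promoter held TGACNNNGC at 121 bases before the start and the Mgst1 promoter at 56 bases before it, while the other start of Mgst1 in RefSeq, at chr6:138141337-138141586, held neither motif. The upstream windows of Cyp2e1 and Sult1e1 held neither, as did those of Gstm4 and Sult1a1. Among 50 tested members with a promoter in the table, 10 held GCGTG and 5 held TGACNNNGC in this window. Of 32841 RefSeq promoters of the same length, 28.2% held GCGTG and 10.2% held TGACNNNGC. A match describes letters and not binding, and no factor's binding was measured.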

How the data were processed

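RNA from the gWAT of 16 mice was sequenced, 1 library per mouse, with 4 mice in each of 4 groups taken from the labels. Per the study's methods, the authors aligned trimmed reads to mm10 with STAR and made the deposited FPKM values with Cufflinks on the GENCODE annotation, and the labels also name Cuffdiff. The library kit was directional. The normalization setting, the annotation release and the use of strand in counting are not given in the sources used here. Depth is unknown, since whole reads could not be recovered from low values, and so no counting interval is given.

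Members were taken by symbol, and members and gene lists were chosen with earlier results of these data known. From the FPKM values, log2(FPKM + 1) was fitted with limma 3.58.1 in R 4.3.3 over all 16 mice and 4 groups with an intensity trend, for the 13148 genes that reached 1 FPKM in 4 or more mice. P-values were two-sided and adjusted by Benjamini-Hochberg over all genes of a comparison, and called genes had adjusted p below 0.05 and a log2 fold change beyond 0.5. All adjusted p-values are limma's, and the fit was tested on simulated data. Members described singly were Sult1e1 and Cyp2e1, every called member, the 3 with the largest rise and the 3 with the largest fall in each comparison, and the 3 most abundant of each family. Of the partner lists, called genes and the most abundant gene were named. Members named outside this rule were chosen after their values were seen. Tables were handled in Python 3.11.15 with pandas 2.3.3. Promoters came from RefSeq on GRCm38.p6. Alternatives were another pseudocount, other filters, scalings and fits, a replicate block, each mouse left out, and 4 settings added after seeing the data (hepatocyte, adipocyte or macrophage marker covariates, and leaving out mice with at least 80 FPKM of Alb).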

Additional observations from a re-analysis of the deposited data

Results flagged for a closer look

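For the 24 named members, 96 groups of 4 mice were checked for 1 mouse whose gap to the nearest other mouse was above Dixon's 95% critical share of the group's range. That held in 11 groups. The rate of 1 in 20 groups flagged by chance assumes normally distributed values. The check used FPKM, and some groups held values of 0, so the count of 11 is not set against that rate. In 4 of the 11 (Cyp2r1, Ugt1a6a, Ugt1a6b and Gstm6) the other 3 mice were listed at 0, so any value above 0 meets the rule and that rate does not apply. Sult1e1, the estrogen sulfotransferase gene, had 3 of them: 204 FPKM in control chow 3, 567 FPKM in ASKO chow 2 and 46.2 FPKM in control HFD 3, each above its group. Sult6b1, another sulfotransferase gene, stood low at 1.51 FPKM in ASKO chow 2 and high at 13.7 FPKM in control HFD 2. Among genes of the Ugt1 locus, which share exons, Ugt1a6a was at 11 FPKM in control HFD 2 and Ugt1a6b at 31.2 FPKM in ASKO chow 3. Gstm6 was at 2.99 FPKM in ASKO chow 3, and Gstm2 was at 49.8 FPKM in ASKO chow 1, above its group. Mgst3 was listed at 0 in control HFD 0, below its group, and Cyp2r1 was at 1.41 FPKM in ASKO chow 1. The cause of these values was not tested.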

How the results depend on the processing

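Counts of called members on the average diet effect (7) were 4 with adjustment over all 6 comparisons, 2 with the adipocyte covariate, 0 with the macrophage covariate and 4 to 8 without each mouse in turn. In control mice (5) they were 2 with only the groups compared, 1 without the mice with at least 80 FPKM of Alb, 1 with the adipocyte covariate, 0 with the macrophage covariate and 1 to 5 without each mouse. In Mboat7 ASKO mice (2) they were 1 each with no filter, no intensity trend, only the groups compared or adjustment over all 6 comparisons, 0 with the adipocyte covariate (Cyp2e1 at -3.28, adjusted p = 0.0531), 0 with the macrophage covariate and 1 to 3 without each mouse. The covariates and the Alb limit were chosen after seeing the data, and the cause of these shifts was not tested. Genotype and interaction counts stayed 0 in every setting run. The direction turned, mostly for values near 0 or with the macrophage covariate, which diet nearly fixes. For Cyp2t4, listed at 0 in all 4 control mice on chow, the fitted value on diet in control mice was then -0.35 on the log2(FPKM + 1) scale, which is not a fold. With that covariate the log2 fold change was -6.52 for Ugt1a1 on diet in control mice, -0.20 for Cyp4b1, 0.0253 for Gsta4 (a fitted value, with control mice on HFD at 0) and -1.19 for Ugt1a7c on the average diet effect, 1.59 for Gsta4 and 0.16 for Mgst1 on diet in Mboat7 ASKO mice, and -0.48 for Gsta3 between genotypes on HFD. With the adipocyte covariate it was 0.49 for Gsta4 in Mboat7 ASKO mice, 0.20 for Gstp1 on average and 0.20 for Sult1a1 in control mice. For Gstm4 between genotypes on HFD it was 0.59 with a pseudocount of 0.1, 0.0807 with the hepatocyte covariate and -0.50 to 0.75 without each mouse. Without the mice high in Alb it was 1.02, a fitted value, with the control HFD mice kept there at 0. For Ugt1a7c on the average diet effect it was -0.0877 to 0.585 without each mouse. Replicate numbers mark different animals, and deviations of same-numbered mice had mean correlations of -0.0151, 0.0247, -0.0189 and 0.027. These means show no common deviation by number, but they cannot exclude a pairing of the mice. With the replicate block, 6, 4 and 2 members were called on average, in control and in Mboat7 ASKO mice. Unknown depth limits what can be said of members near 0.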
